A study of Mus musculus with 12 samples.

Results

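Liver peroxisomes oxidise the fatty acids that mitochondria handle poorly, and 10 genes of that route were followed here in livers of male wild-type and Pml knockout mice. Pml encodes the scaffold protein of PML nuclear bodies. The genes were Abcd2 and Abcd3 (import of acyl-CoA), Acox2 and Acox3 (oxidation), Ehhadh and Hsd17b4 (hydration and dehydrogenation), Scp2 (thiolysis), Cat (removal of hydrogen peroxide), Ephx2 (hydrolysis of fatty acid epoxides) and Pex11a (multiplication of the organelle). They were given as a list of names, and every probe set annotated to exactly 1 of these names was taken, which gave 16 of the 45141 probe sets and 10 of the 17097 genes on the array. There were 4 groups of 3 arrays: wild-type mice on a low-fat diet, wild-type mice on a high-fat diet, Pml knockout mice on the low-fat diet and Pml knockout mice on the high-fat diet. The low-fat diet gave 10% of calories as fat and the high-fat diet gave 60%. All mice had eaten their diet for 20 weeks and were fasted for 8 h before the liver was taken. The 3 extracts of a group came from a group of 8 mice. The labels do not say outright that each extract was a different mouse. The p-values therefore set a difference between groups against the spread between these extracts, which may not be the spread between mice. The labels also do not give the age of the mice, the allele by which Pml was lost or the cells that lost it.

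In the peroxisome, an acyl-CoA is brought in by an ABC transporter of the D family and shortened in a cycle of oxidation, hydration, dehydrogenation and thiolysis. The oxidases pass electrons straight to oxygen, so each turn makes hydrogen peroxide, which catalase destroys. Several of these genes are classical targets of PPARα, a nuclear receptor that is activated by fatty acids and by fibrate drugs and that binds, with RXR, to a direct repeat of AGGTCA with a spacing of 1 base.

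The stretches of DNA just before and after the transcription start are shown for 3 of the genes, because Ehhadh and Acox2 differed between the diets below and Cat did not pass the test. They are RefSeq windows of build GRCm38.p6, from 250 bases before the start to 50 bases after it, read 5′ to 3′ on the strand of the gene. The table used held a window for 7 of the 10 genes. Ehhadh lay at chr16:21787785-21788084, Acox2 at chr14:8258790-8259089 and Cat at chr2:103485104-103485403, all on the minus strand. Acox2 had another window further upstream, which matched no motif searched. Capitals mark the matches, on either strand, to AGGTCA, to the GC box (GGGCGG) and to CCAAT.
Ehhadh: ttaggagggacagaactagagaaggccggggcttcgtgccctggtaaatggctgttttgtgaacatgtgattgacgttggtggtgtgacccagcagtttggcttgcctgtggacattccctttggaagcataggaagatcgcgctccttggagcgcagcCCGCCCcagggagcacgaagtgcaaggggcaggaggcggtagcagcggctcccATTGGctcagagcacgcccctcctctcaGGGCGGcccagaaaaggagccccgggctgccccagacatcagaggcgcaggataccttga
Acox2: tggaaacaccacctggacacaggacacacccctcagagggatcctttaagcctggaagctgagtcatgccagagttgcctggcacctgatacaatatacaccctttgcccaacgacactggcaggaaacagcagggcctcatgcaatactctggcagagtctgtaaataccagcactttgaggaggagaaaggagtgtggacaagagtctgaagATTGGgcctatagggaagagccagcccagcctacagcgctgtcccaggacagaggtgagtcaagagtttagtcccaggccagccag
Cat: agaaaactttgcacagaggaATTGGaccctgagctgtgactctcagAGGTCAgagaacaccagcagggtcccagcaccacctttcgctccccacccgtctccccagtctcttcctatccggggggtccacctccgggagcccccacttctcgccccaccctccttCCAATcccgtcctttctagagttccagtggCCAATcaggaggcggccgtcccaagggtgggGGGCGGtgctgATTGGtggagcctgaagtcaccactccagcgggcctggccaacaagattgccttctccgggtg

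The Ehhadh window held 2 GC boxes, with first bases at positions -91 and -10 from the start, and a CCAAT on the opposite strand at -38. The Acox2 window held a single match, a CCAAT on the opposite strand at -36. The Cat window held 4 CCAAT matches, a GC box at -24 and AGGTCA at -204. Over the 7 genes with a window, the GC box was found in 5, CCAAT in 3 and AGGTCA in 2, Cat and Scp2. Of all 32851 promoter windows in the table, 35.7% held GGGCGG, 37.4% CCAAT and 16.3% AGGTCA. These shares are by window and the counts above by gene, and Acox2 and Abcd3 each had another window. Windows of the 7 genes were 54% to 76.3% G or C, against a median of 52.7% over all windows. The full repeat AGGTCANAGGTCA, which 0.0396% of all windows held, and its looser form AGGNCANAGGNCA, which 0.381% held, were in none of the 7. TATAAA, in 13.6% of all windows, was also in none. The absence of these letters from 300 bases says nothing about sites elsewhere.

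The values are log2 signals, so a difference of 1 is a doubling, and a level can be compared between arrays but not between probe sets. In the knockout arrays the brighter Pml probe set read 3.04 to 3.82 against 4.92 to 5.40 in the wild-type arrays, without overlap (limma adjusted p = 0.000225 over both diets). The knockout values were under 4.08, the mean below which genes were left out as too dim, so no fold is given. Markers of hepatocytes, averaged over 8 of 8 genes, were at 12.3 to 12.6 in every array. Those of bile duct cells (3.48 to 3.66, 5 of 6 genes with a probe set) and fat cells (3.16 to 3.48, 3 of 5) were near the floor, those of lymphocytes and neutrophils were at 3.92 to 4.25 (5 of 7) and those of stellate cells at 4.98 to 5.59 (7 of 7). The averaged level of 8 macrophage markers was 4.98 in knockout low-fat replicate 2 and 5.39 in knockout high-fat replicate 3, against 5.82 to 6.64 in the other 10 arrays. The averaged level of 8 liver endothelium markers was 5.98 to 6.03 in those arrays and in knockout high-fat replicate 2, against 6.41 to 6.87 elsewhere. Over all 12 arrays no marker list separated the diets or the genotypes without overlap. Within the wild type, hepatocyte markers were at 12.55 to 12.60 on low fat and 12.42 to 12.48 on high fat, and macrophage markers at 5.82 to 6.01 and 6.10 to 6.26, without overlap in either case. Within the high-fat diet, lymphocyte and neutrophil markers were at 3.96 to 4.08 in the wild type and 4.14 to 4.25 in the knockout, also without overlap. Of those 7 genes, 5 had a probe set and only 3 were bright enough to test. With 3 arrays against 3 such a separation is not rare. Of all single genes tested, 7.83% had every wild-type high-fat array above every wild-type low-fat array. The part of these differences in the results was not tested beyond leaving out the 2 arrays lowest in macrophage markers. In whole liver, fewer cells of a type and less RNA per cell cannot be told apart.

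**Figure D1:**
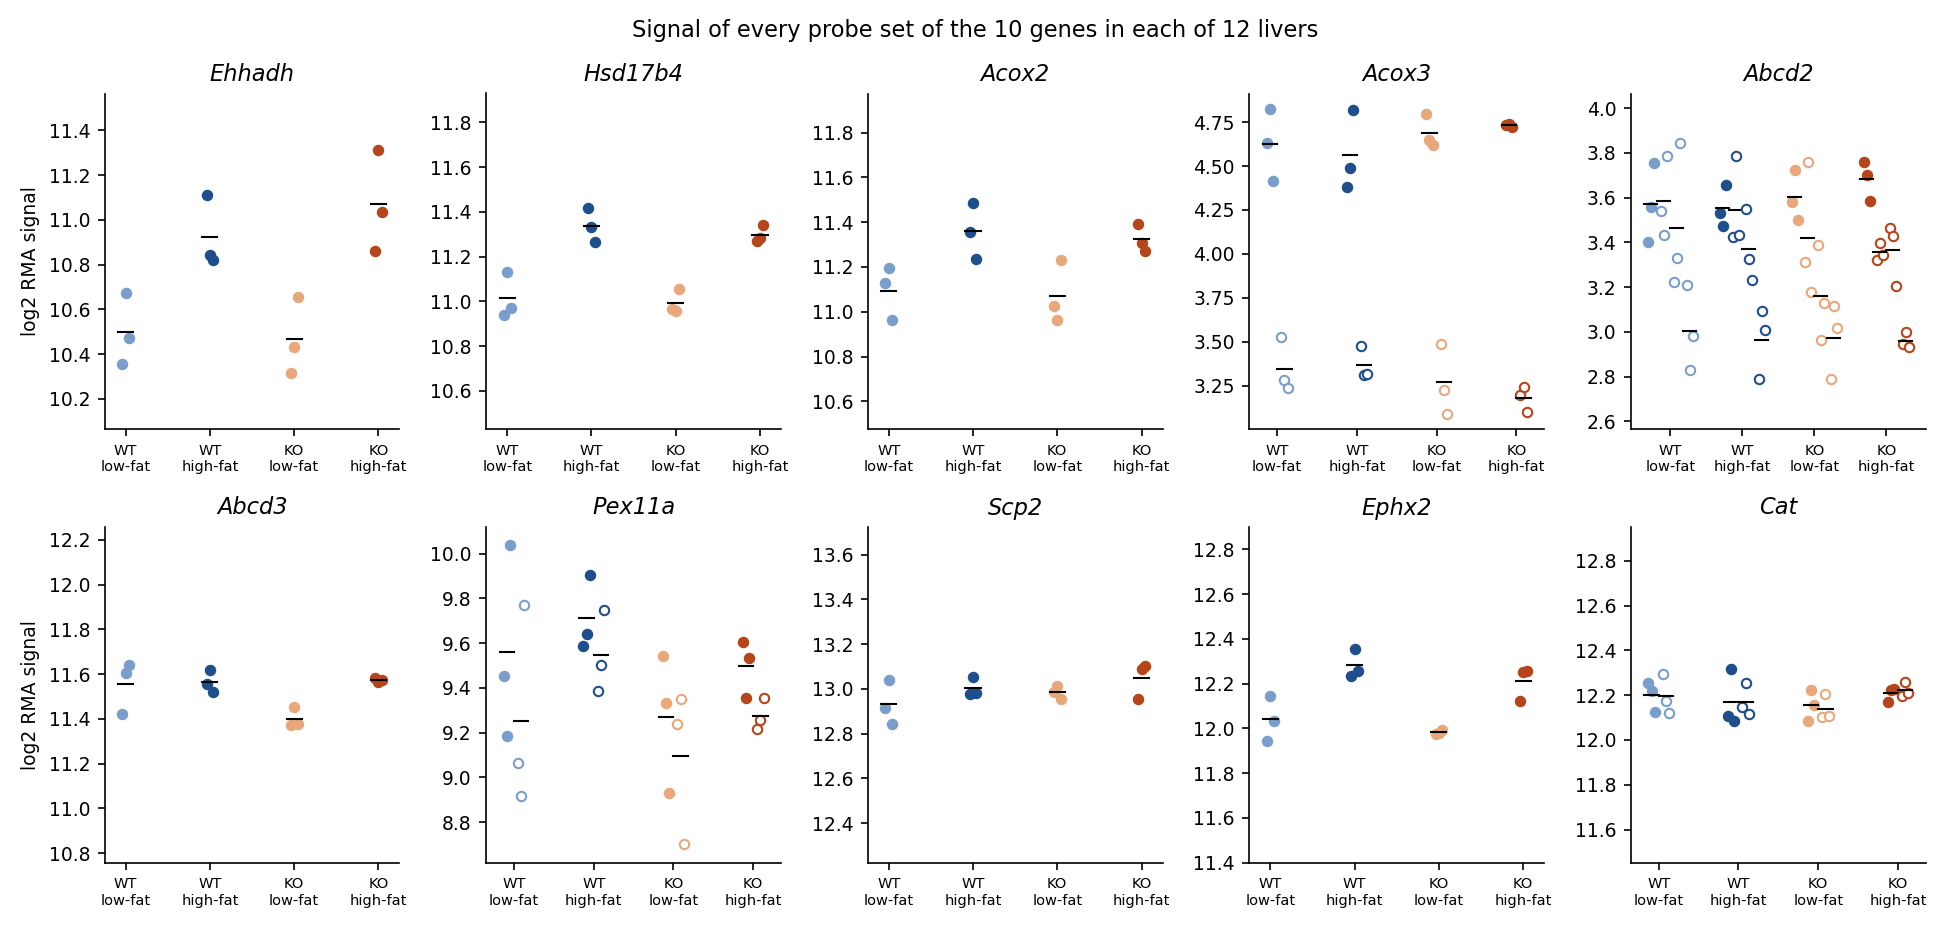
log2 signal of the 10 genes in each of the 12 arrays, 1 panel a gene with its own vertical scale. Filled points are the brightest probe set of the gene and open points its other probe sets. Black bars are the group means of each probe set (n = 3). The 6 high-fat arrays lie above the 6 low-fat arrays for Ehhadh, Hsd17b4 and Acox2, while Pex11a spreads widely within the groups.

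The high-fat diet was compared with the low-fat diet to ask which of these genes respond to dietary fat. Over both genotypes, 4 of the 9 genes bright enough to test rose on the high-fat diet: Ehhadh 1.43-fold, Hsd17b4 1.24-fold, Acox2 1.20-fold and Ephx2 1.18-fold, by limma with p-values adjusted over 10258 genes. None fell. Of all genes tested, 4.56% passed in either direction and 2.57% were higher. The median log2 difference was 0.19 over the 9 genes and -0.004 over all genes, and 8 of the 9 values were above 0. Signals of Ehhadh, Hsd17b4 and Acox2 did not overlap between the 6 low-fat and the 6 high-fat arrays, which held in that direction for 1.80% of all genes.

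In the knockout alone, 2 of the 9 genes rose, Ehhadh and Hsd17b4, beside 3.03% of all genes called in either direction and 1.75% called higher. In the wild type alone none passed, beside 0.175% of all genes called in either direction and 0.0780% called higher, and 4 of the 9 had an unadjusted p under 0.05, as did 905 of all 10258 genes. Values in the knockout were above 0 for 9 of 9 genes, with a median of 0.23, and in the wild type for 7 of 9, with a median of 0.15. Groups did not overlap, with the high-fat arrays higher, for 4 of the 9 genes in the wild type and 5 in the knockout, against 7.83% and 10.8% of all genes. The within-genotype comparisons use the same arrays as the comparison over both genotypes. The count in the knockout rested on single arrays: without knockout low-fat replicate 1 or 2, or high-fat replicate 2 or 3, neither gene passed, and without high-fat replicate 1 only Ehhadh did. Calls over all 10258 genes fell as well in these removals, from 311 to 110, 151, 71, 136 and 176 in that order.

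**Figure D2:**
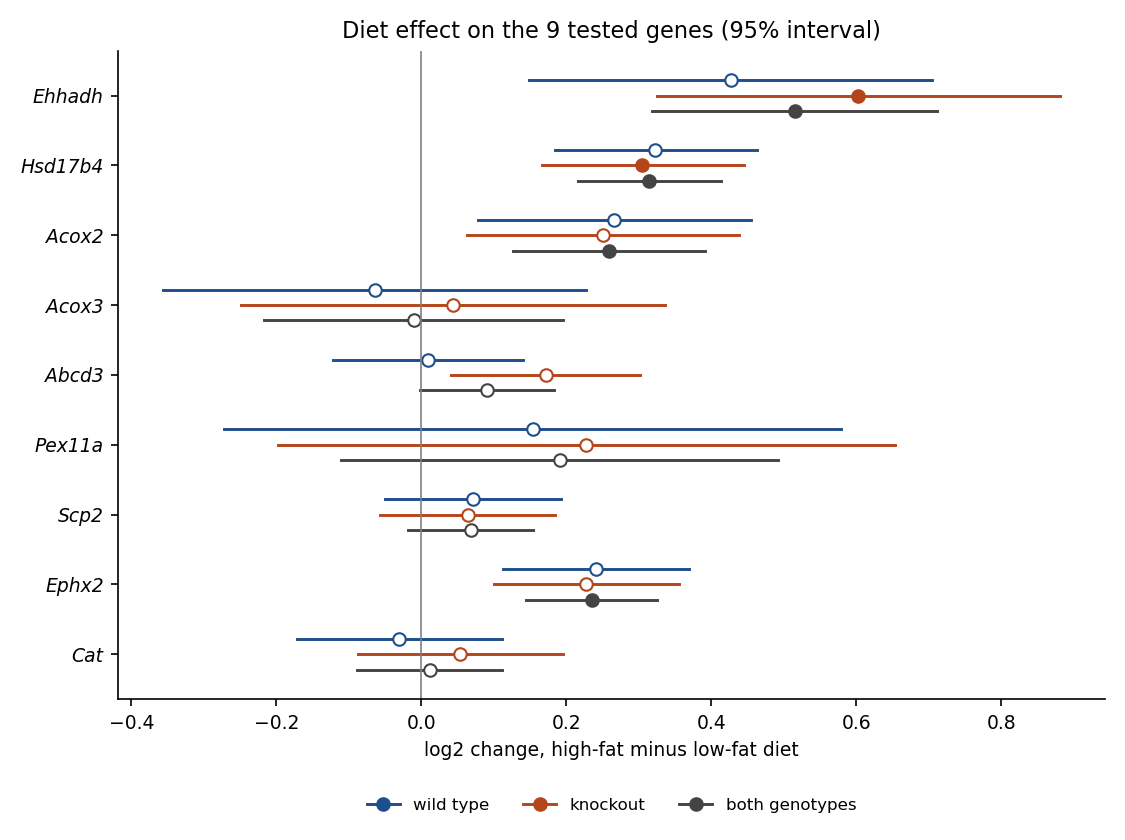
log2 difference between the high-fat and the low-fat diet for the 9 tested genes in the wild type, in the knockout and over both genotypes; points are limma estimates, lines their 95% intervals, and filled points passed an adjusted p of 0.05. Over both genotypes 4 points are filled, Ehhadh farthest to the right, and in the knockout 2.

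Among the transporters, Abcd3, also called PMP70, is the most abundant protein of the liver peroxisome membrane and carries long-chain and branched-chain acyl-CoA and bile acid precursors. Its log2 signals were 11.42, 11.60 and 11.64 in wild-type low-fat livers and 11.56, 11.62 and 11.52 in wild-type high-fat livers. In knockout livers they were 11.37, 11.45 and 11.38 under low fat and 11.58, 11.57 and 11.57 under high fat. The low-fat knockout arrays were low as a group, overlapping only 1 of the low-fat wild-type arrays. The high-fat knockout arrays lay above all low-fat knockout arrays, as held for 10.8% of all genes. The diet difference was 0.17 in the knockout (SE 0.0600, 95% interval 0.041 to 0.302, limma adjusted p = 0.140) and 0.01 in the wild type (95% interval -0.121 to 0.140). Neither passed the test. Abcd2, a transporter of very long-chain and polyunsaturated acyl-CoA with a low level in liver, had 4 probe sets that read 2.79 to 3.84 over all arrays. All 4 were below the brightness needed for testing, and their diets overlapped in every case.

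Acox2 oxidises the side chain of bile acid precursors. Its log2 signals were 11.13, 11.19 and 10.96 in wild-type low-fat livers and 11.36, 11.49 and 11.24 in wild-type high-fat livers. In knockout livers they were 11.02, 10.96 and 11.23 under low fat and 11.39, 11.31 and 11.27 under high fat. The lowest high-fat array, 11.24, was only just above the highest low-fat array, 11.23. The difference over both genotypes was 0.26 (SE 0.0614, 95% interval 0.126 to 0.392, limma adjusted p = 0.0322), with 0.27 in the wild type and 0.25 in the knockout. This was the least secure of the 4 calls. Leaving out any 1 of 9 of the 12 arrays ended it, although the difference stayed between 0.23 and 0.30; the 3 arrays whose removal kept it were replicate 2 of the wild-type low-fat group and replicate 3 of the wild-type high-fat and knockout low-fat groups. Acox3, the oxidase of pristanic acid and related branched chains, was dim, at 4.38 to 4.83 on its brighter probe set and 3.09 to 3.53 on the other. Its diet difference was -0.01 (95% interval -0.217 to 0.196), and the diets overlapped on both probe sets.

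Ehhadh is the L-bifunctional enzyme, which hydrates and dehydrogenates straight-chain and dicarboxylic acyl-CoA and is a textbook PPARα target. Its log2 signals were 10.35, 10.67 and 10.47 in wild-type low-fat livers and 11.11, 10.85 and 10.82 in wild-type high-fat livers. In knockout livers they were 10.32, 10.43 and 10.66 under low fat and 10.86, 11.31 and 11.04 under high fat. All 6 high-fat arrays were above all 6 low-fat arrays. The group means were 10.50 ± 0.161 and 10.93 ± 0.160 in the wild type and 10.47 ± 0.174 and 11.07 ± 0.228 in the knockout (SD, n = 3). The difference over both genotypes was 0.52 (SE 0.0905, 95% interval 0.319 to 0.711, limma adjusted p = 0.00787), the largest of the 9. It was 0.60 in the knockout, or 1.52-fold (adjusted p = 0.0288), and 0.43 in the wild type (adjusted p = 0.286).

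Hsd17b4 is the D-bifunctional enzyme, which does the same chemistry through the opposite stereoisomer and is needed for very long-chain fatty acids, branched chains and bile acid precursors. Its log2 signals were 10.94, 11.13 and 10.97 in wild-type low-fat livers and 11.42, 11.33 and 11.26 in wild-type high-fat livers. In knockout livers they were 10.97, 10.96 and 11.06 under low fat and 11.27, 11.29 and 11.34 under high fat. The low-fat and the high-fat arrays formed separate ranges, and arrays of a group lay close together. The difference over both genotypes was 0.31 (SE 0.0454, 95% interval 0.216 to 0.413, limma adjusted p = 0.00260), which gave the lowest p-value of the 9 genes. It was 0.32 in the wild type (adjusted p = 0.0760) and 0.31 in the knockout (adjusted p = 0.0275).

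Scp2 encodes both the peroxisomal thiolase SCPx, which ends the cycle for branched chains and bile acid precursors, and the lipid carrier SCP2. Its probe set read 12.92, 13.04 and 12.84 in wild-type low-fat livers and 12.98, 13.05 and 12.98 in wild-type high-fat livers. In knockout livers the values were 12.99, 13.01 and 12.96 under low fat and 12.96, 13.09 and 13.10 under high fat. These ranges overlapped, and the diet difference over both genotypes was 0.07 (95% interval -0.018 to 0.154, limma adjusted p = 0.380).

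Cat encodes catalase, which breaks down the hydrogen peroxide of the oxidases. Its probe sets read 12.09 to 12.32 and 12.10 to 12.30 over the 12 arrays, and they differed from each other by -0.042 to 0.065 within an array. The diet difference over both genotypes was 0.01 (SE 0.0460, 95% interval -0.088 to 0.111, limma adjusted p = 0.932) on the brighter probe set and 0.03 on the other. The interval for Cat lay below that of Ehhadh, Hsd17b4, Acox2 and Ephx2, the difference between genes itself not being tested.

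Ephx2, the soluble epoxide hydrolase, turns fatty acid epoxides into diols in the cytosol and in peroxisomes. Its log2 signals were 11.95, 12.15 and 12.03 in wild-type low-fat livers and 12.23, 12.35 and 12.26 in wild-type high-fat livers. In knockout livers they were 11.98, 11.98 and 11.99 under low fat and 12.12, 12.25 and 12.26 under high fat. Within each genotype the diets did not overlap, while over both genotypes 5 of the 6 high-fat arrays exceeded the highest low-fat array. The difference over both genotypes was 0.23 (SE 0.0418, 95% interval 0.144 to 0.325, limma adjusted p = 0.00832), with 0.24 in the wild type and 0.23 in the knockout.

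Pex11a encodes a membrane protein that elongates peroxisomes before they divide, and it is also induced by PPARα ligands. Its brighter probe set read 9.45, 9.19 and 10.04 in wild-type low-fat livers, 9.59, 9.64 and 9.91 in wild-type high-fat livers, 9.54, 9.33 and 8.93 in knockout low-fat livers and 9.60, 9.35 and 9.54 in knockout high-fat livers. The highest array (wild type) and the lowest (knockout) both came from low-fat mice, and the second probe set had the same arrays at its ends, at 9.77 and 8.70. The spread within groups, 0.287 on the brighter probe set and 0.303 on the other as a pooled SD, was the widest of the 16 probe sets. The diet difference over both genotypes was 0.19 (95% interval -0.110 to 0.492, limma adjusted p = 0.488) and 0.24 on the second probe set (95% interval -0.075 to 0.549, adjusted p = 0.435).

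Tested probe set by probe set, 11 of the 16 were bright enough, and the same 4 genes passed on their single probe set, beside 2.94% of all 17338 probe sets tested. Without the 2 arrays lowest in macrophage markers, 3 of the 4 genes passed over both genotypes. Ehhadh was then at 0.51 (limma adjusted p = 0.0387), Hsd17b4 at 0.30 (0.0240) and Ephx2 at 0.22 (0.0476), while Acox2 was at 0.24 (0.0932).

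The knockout was compared with the wild type to ask whether these genes depend on Pml. No gene passed on the low-fat diet, on the high-fat diet or over both diets, by limma with an adjusted p of 0.05. Of all genes tested, 0.00975% passed on either diet taken alone and 0.0195% over both. Only Abcd3 on the low-fat diet had an unadjusted p under 0.05 among the 9 genes, where 895 of all 10258 genes did, with none of the 9 on the high-fat diet or over both diets. Values on the low-fat diet were below 0 for 7 of the 9 genes, with a median of -0.03, and on the high-fat diet for 4 of the 9, with a median of 0.01. None of the 9 had all knockout arrays below all wild-type arrays, which held for 4.92% of all genes on the low-fat diet, 5.19% on the high-fat diet and 0.127% over both.

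For the genes that rose with the diet, the intervals of the genotype difference over both diets all included 0. They ran from -0.139 to 0.254 for Ehhadh, -0.129 to 0.068 for Hsd17b4, -0.163 to 0.103 for Acox2 and -0.155 to 0.027 for Ephx2. Cat ran from -0.103 to 0.097 around a difference of -0.003. Abcd3 was lower in the low-fat knockout by a log2 value of -0.15 (SE 0.0600, 95% interval -0.285 to -0.024, limma adjusted p = 0.526) and was at 0.01 on the high-fat diet. Pex11a had the lowest values, -0.29 on the low-fat diet, -0.22 on the high-fat diet and -0.25 over both (95% interval -0.553 to 0.048, adjusted p = 0.741). With 1 array left out, the low-fat value ran from -0.48 (without wild-type low-fat replicate 2) to -0.05 (without replicate 3 of that group), and the same removals took the value over both diets to -0.35 and -0.13. The high-fat value ran from -0.28 (without wild-type high-fat replicate 1) to -0.12 (without replicate 3 of that group). On its second probe set all 3 high-fat knockout arrays, at 9.22, 9.26 and 9.35, were below the wild-type arrays at 9.39, 9.50 and 9.75, a difference of -0.27 (adjusted p = 0.997), while on the brighter probe set the groups overlapped.

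**Figure D3:**
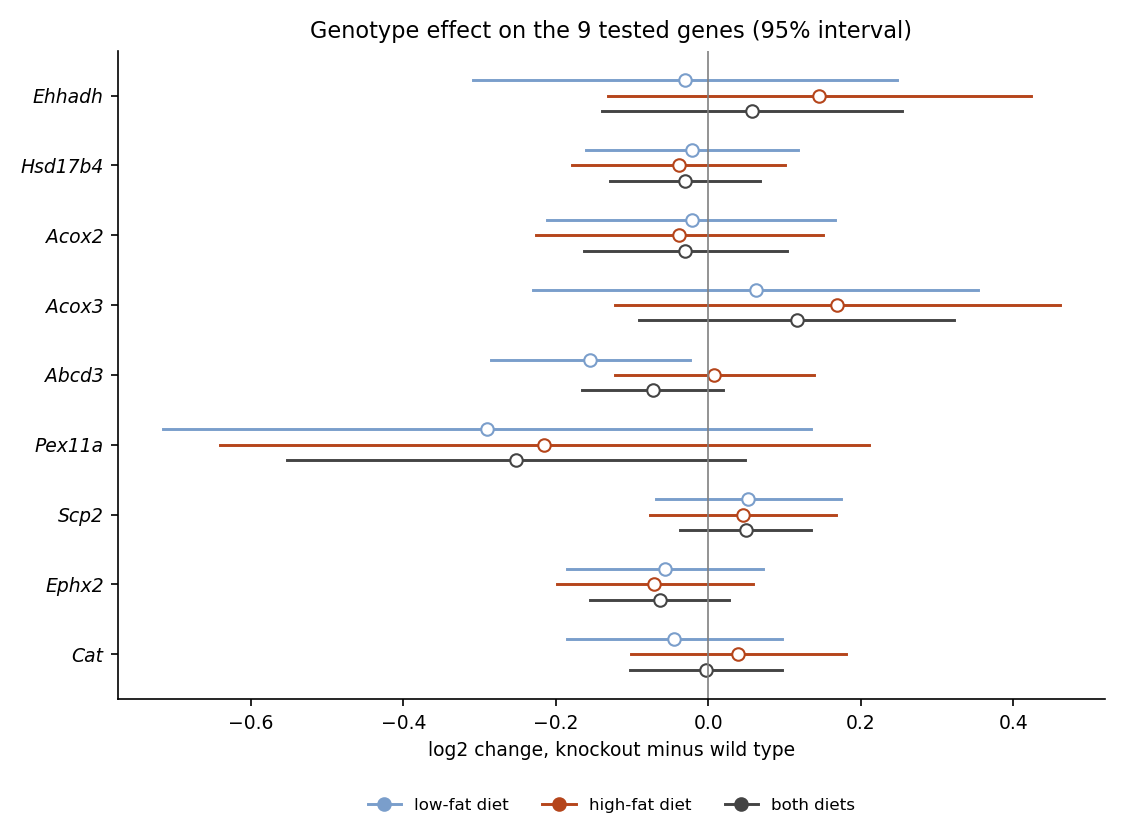
log2 difference between Pml knockout and wild type for the 9 tested genes on the low-fat diet, on the high-fat diet and over both; points are limma estimates, lines 95% intervals, and open points did not pass an adjusted p of 0.05. All points are open, and all lines but that of Abcd3 on the low-fat diet cross 0.

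Whether the diet acted differently in the knockout was tested as the difference of the diet effects, knockout minus wild type. It passed for 0 of the 9 genes and for 0% of all genes tested, by limma, and none of the 9 had an unadjusted p under 0.05 (lowest adjusted p 0.869). The difference was 0.18 for Ehhadh (SE 0.181, 95% interval -0.217 to 0.569, adjusted p = 0.927), so that the pass in the knockout and the miss in the wild type were not shown to differ; with 1 array left out it ran from 0.06, without knockout high-fat replicate 2, to 0.28, without replicate 1 of that group. For Hsd17b4 it was -0.02 (95% interval -0.215 to 0.179), for Acox2 -0.01 (95% interval -0.282 to 0.251) and for Ephx2 -0.01 (95% interval -0.195 to 0.168). Abcd3 had the lowest unadjusted p, 0.0793, with a difference of 0.16 (95% interval -0.022 to 0.346).

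The other genes of peroxisomal β-oxidation and fatty acid handling, 27 by name, had 22 with a probe set and 21 tested. Over both genotypes 6 of the 21 rose on the high-fat diet and none fell, with 17 values above 0 and a median of 0.16. Of all genes tested, 4.56% passed in either direction and 2.57% were higher. Ech1, an isomerase of dienoyl-CoA that is found in peroxisomes and mitochondria, rose 1.61-fold (0.69, SE 0.0636, limma adjusted p = 0.000152). Its signals were 10.24 to 10.57 in the 6 low-fat arrays and 11.02 to 11.33 in the 6 high-fat arrays. It was the only one of the 21 to pass in the wild type alone, beside 0.0780% of all genes called higher. Decr2, the peroxisomal dienoyl-CoA reductase that works on unsaturated chains, rose 1.49-fold (0.57, SE 0.0672, adjusted p = 0.000726). Acaa1a, the thiolase for straight chains, rose by 0.37 (adjusted p = 0.0184), and so did Acot8, an acyl-CoA thioesterase (0.37, adjusted p = 0.0263). In the knockout alone 4 of the 21 rose, beside 1.75% of all genes called higher. Leaving out replicate 2 of the wild-type high-fat group made it 2. So did leaving out replicate 1 or 2 of the knockout low-fat group, or replicate 2 or 3 of the knockout high-fat group. Over all genes the 180 called higher in the knockout became 137, 63, 74, 49 and 84 in that order. Without knockout high-fat replicate 2, or without the 2 arrays lowest in macrophage markers, 3 of the 21 passed over both genotypes. Of all genes 165 and 129 were then called higher, against 264. Ech1 and Decr2 passed in all 24 alternatives run. Acaa1a lost its call in just those 2 settings, and Acot8 also when replicate 1 of any group but the knockout high-fat one, replicate 2 of the wild-type high-fat or knockout low-fat group, or replicate 3 of the knockout high-fat group was left out.

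Of the 20 genes of peroxisome biogenesis and division, 16 were tested. Over both genotypes 14 of their values were above 0, with a median of 0.11. In that comparison 3 of the 16 rose, beside 2.57% of all genes called higher. They were Pex11g (0.46, SE 0.104, limma adjusted p = 0.0266), a relative of Pex11a, and the proteases Lonp2 (0.35, SE 0.0911, adjusted p = 0.0465) and Tysnd1 (0.29, SE 0.0588, adjusted p = 0.0165), which degrade or process matrix enzymes. None passed in the wild type alone. Of all genes, 0.0780% were called higher there and 1.75% in the knockout alone. In the knockout alone Pex11g passed, and it did not without any 1 of 8 arrays (wild-type low-fat replicate 1, all 3 wild-type high-fat replicates, and replicates 1 and 2 on low fat or 2 and 3 on high fat of the knockout). Without the 2 arrays lowest in macrophage markers none of the 16 passed. Leaving out 1 array at a time gave 1 to 5: it was 1 without any single wild-type array other than low-fat replicate 2, which gave 5, and 1 without knockout low-fat replicate 1 or 2 or high-fat replicate 1 or 2. Over all genes 264 were called higher over both genotypes, and 129 without those 2 arrays. There were 324 without wild-type low-fat replicate 2 and 159 to 239 in the removals that gave 1. Without replicate 3 of the knockout there were 382 on low fat (3 of the list) and 190 on high fat (2 of the list). When the probe sets of a gene were averaged, Lonp2 was at 0.13 (adjusted p = 0.388) and Tysnd1 at 0.15 (adjusted p = 0.215), and neither passed. Of 15 other peroxisomal enzymes, 9 were tested and 1 rose over both genotypes, beside the same 2.57% of all genes. This was Gstk1, a glutathione transferase (0.39, SE 0.0501, limma adjusted p = 0.00141), which passed in all 24 alternatives. The list median was 0.02. None of these lists had a gene that fell with the diet or passed between the genotypes.

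**Figure D4:**
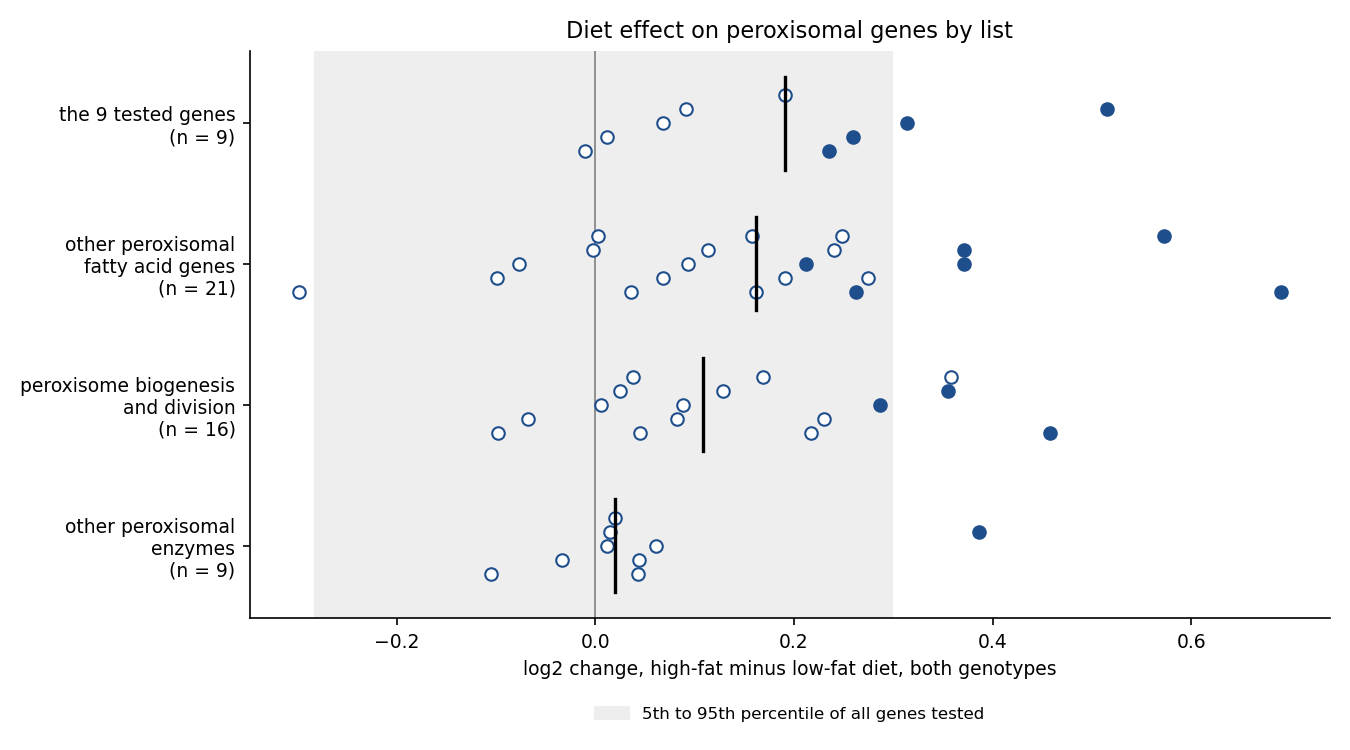
log2 difference between the diets over both genotypes for each tested gene of the 10 described genes and of the 3 other peroxisomal lists; filled points passed a limma adjusted p of 0.05, black bars are list medians and the grey band spans the 5th to 95th percentile of all 10258 genes (-0.28 to 0.30). Filled points number 4, 6, 3 and 1, all to the right of 0.

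The genes whose profile over the 12 arrays came nearest to that of Ehhadh, by the root mean square difference of values centred on each gene's mean, were Tmem134 (0.0930), Pex26 (0.110) and Entpd5 (0.113), against a median of 0.340 over all genes tested. For Hsd17b4 they were Acadl (0.0530), which starts mitochondrial long-chain oxidation, Pigbos1 (0.0571) and the Gstk1 named above (0.0628), against a median of 0.228. For Acox2 they were Czib (0.0540), Cd81 (0.0633) and Gfm1 (0.0685), against a median of 0.218. These distances describe the same 12 arrays and the brightest probe set of each gene, and carry no test. Acadl passed the diet comparison over both genotypes on that probe set (limma adjusted p = 0.00405) but not with its probe sets averaged (0.208).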

How the data were processed

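Total RNA of 12 mouse liver extracts was hybridised to 1-colour Affymetrix PM arrays. The values that the authors deposited are log2 signals of 45141 probe sets; the submitters' processing notes name RMA without a version. RMA usually brings arrays to a shared distribution and understates changes at either end of the signal range. No further scaling was applied.

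Names came from the platform annotation: 28898 probe sets had 1 gene, 551 several and 15588 none, and 104 control probe sets were left out. Each of 17097 genes was represented by its probe set with the highest mean. The 40% of genes with the lowest mean (below 4.08) were left out, which removed Abcd2 and left 10258 genes. The 4 group means over all 12 arrays were fitted with limma 3.58.1 (R 4.3.3; lmFit, contrasts.fit, eBayes with trend, 8 residual degrees of freedom) for 7 comparisons, with Benjamini-Hochberg adjustment over all genes at 0.05. A second fit took every single-gene probe set above its own 40% filter. With 3 arrays against 3 an exact permutation test cannot go below 0.1, so none was used for single genes. The code was tested on simulated data.

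All 10 genes and their probe sets are named, Pml as the check of the labels, up to 4 genes a list past the threshold by largest change, and for 3 of the genes that passed the 3 tested genes of nearest profile. These genes, lists and rules were chosen with earlier results of these data known. The labels do not state that replicate numbers pair the arrays, so the numbers were not taken as pairs. Of 18 pairs of arrays with the same number, 7 had a correlation of their deviations over 0.1 (range -0.166 to 0.381). Pairs with unlike numbers were not set beside them, so these correlations cannot decide whether the arrays were paired. The number of arrays limits the precision. Promoter windows are RefSeq's. Alternatives tried were other scaling, filters, probe set rules, variance models, a replicate block and leaving out arrays.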

Additional observations from a re-analysis of the deposited data

How the results depend on the processing

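No value that passed the test changed sign. Values near 0 did, among them the diet difference of Acox3 (-0.07 to 0.04) and Cat (-0.01 to 0.05) over both genotypes, that of Abcd3 (-0.06 to 0.06) and Pex11a (-0.03 to 0.39) in the wild type, and the genotype difference of Acox2 on the low-fat diet (-0.10 to 0.03). Ehhadh, Hsd17b4 and Ephx2 passed over both genotypes in all 24 alternatives (highest limma adjusted p 0.0387, 0.0240 and 0.0476), and Acox2 in 13 of 24. In the knockout alone the 2 genes became 0 without a variance trend and 0 from only the groups compared. They also became 0 without the 2 arrays lowest in macrophage markers, an alternative chosen after seeing the data. The count became 3 after quantile normalization, with array weights, at an adjusted p of 0.10 and with the dimmest 60% of genes left out. Over all genes the 311 knockout calls became 420, 415, 655 and 329 (of 6838 tested) in that order. With 1 array at a time left out the count of the 9 genes was 0 to 3. In the knockout Ehhadh stayed at 0.48 to 0.71 and Hsd17b4 at 0.27 to 0.34 over all 25 alternatives. In the wild type alone the 0 genes became 1 after quantile normalization, 2 with array weights, 1 at an adjusted p of 0.10, and 0 to 1 with 1 array left out (1 without wild-type low-fat replicate 2). Of the member probe sets, 4 became 2 without a variance trend and 2 without those 2 arrays, and 3 to 4 with 1 array left out. With a replicate block, a pairing the labels do not state, 4 genes passed over both genotypes, 3 in the knockout and 0 in the wild type. The causes were not tested.

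Over all genes, the 18 calls for the diet in the wild type became 34 after quantile normalization, 109 with array weights, 65 at 0.10 and 5 to 39 with 1 array left out. The 311 in the knockout became 68 from only the groups compared, 69 without the 2 arrays, 655 at 0.10 and 71 to 461 with 1 array left out. They became 212 without a variance trend and 310 with a replicate block. The 468 over both genotypes became 258 without the 2 arrays, 776 with array weights, 921 at 0.10 and 275 to 583. Fitting only the groups compared gives no separate value for the comparisons over both diets or genotypes. Abcd2 and the second Acox3 probe set were too dim to test.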

Other observations

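Some genes of the other peroxisomal lists stood out by values that did not pass the test, and they are named here after their values were seen. Acot3, an acyl-CoA thioesterase, was at 7.25 ± 0.994 in wild-type low-fat livers, 6.07 ± 1.01 in wild-type high-fat livers, 5.79 ± 0.263 in knockout low-fat livers and 6.77 ± 0.643 in knockout high-fat livers (SD, n = 3). The difference of its diet effects between the genotypes was 2.17 (SE 0.738, limma adjusted p = 0.827). Decr2, which rose with the diet, was lower in the knockout than in the wild type on the low-fat diet in all 3 arrays, as held for 4.92% of all genes. The log2 difference was -0.40 on the low-fat diet (SE 0.0950, limma adjusted p = 0.298) and -0.06 on the high-fat diet. Nudt19, which hydrolyses coenzyme A, had the lowest diet difference of the fatty acid list, -0.30 over both genotypes (SE 0.0838, limma adjusted p = 0.0654).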
